A study of Citrus unshiu with 2 samples.

Results

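Genes with weak CG methylation in their exons were described in the shoot methylome of Citrus unshiu, the satsuma mandarin. Members were chosen from the deposited levels themselves. The level of each gene was averaged over both libraries, and a gene was taken when its exon CG average was at least 5% and under 20%, its exon CHG average under 5% and its intron CHG average under 20%. There were 2434 such genes among the 29073 listed in both libraries, or 8.37%. H stands for any base other than G, and a methylation level is the percentage of cytosines of one context that were read as methylated after bisulfite conversion. The study holds 1 bisulfite library from normally watered trees and 1 from trees under light drought, and both libraries come from shoots labelled as mature stems. Of the trees in a rain-proof tunnel, 20 were assigned to each group, and the drought treatment let the soil dry to around 15% moisture over 75 days. The labels leave out how many trees entered a library. Both are bulk tissue, so a difference in the make-up of cell types and a difference in methylation per cell cannot be told apart.

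In plants, CG methylation inside the transcribed part of a gene, without CHG or CHH methylation, is known as gene body methylation. The methyltransferase MET1 copies it when DNA is replicated, and it is typical of constitutively expressed genes, where it is usually scarce at both gene ends. CHG methylation is kept by chromomethylases such as CMT3, and CHH methylation depends on CMT2 and on the RNA-directed DNA methylation pathway. Both non-CG marks are typical of transposons and of repeats near genes. A level between that of unmethylated and of body-methylated genes can arise when a few cytosines in a gene are methylated in most cells, or many in few cells, and levels per gene do not separate these cases.

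Since each condition has 1 library, neither a spread between replicates nor a test of the conditions can be given, and each difference describes these libraries. Differences subtract the normal water level from the light drought level and are in percentage points, and SDs are over genes, which are not replicates. The read depth behind a level is unknown. A listed 0 can also mean that the region does not exist in the gene or that no cytosine in it was covered.

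The members stand between the many genes with little exon CG methylation and those with more. Within the same CHG limits, 9638 genes had an exon CG average under 5% and 10873 had 20% or more. In steps of 5 points there were 1056 members from 5 to 10%, 766 from 10 to 15% and 612 from 15 to 20%, next to 623 genes from 20 to 25% and 962 genes from 90 to 95%. The limits do not fall on a gap. Just inside the lower limit stood members averaging 5%, at 0% under normal water and 10% under light drought, and just outside it a gene averaging 4.99%, at 6.48% and 3.50%. At the upper limit, a member averaged 19.97%, at 20.85% and 19.09%, and 2 genes averaging 20% were listed at 0% in one library and at 40% in the other.

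Mean CG was lower in 5' UTRs than in exons, and higher in introns, 3' UTRs and both flanks. Mean CG levels under normal water were 21.7% in promoters, 0.767% in 5' UTRs, 10.3% in exons, 18.1% in introns, 19.1% in 3' UTRs, 13.8% over gene bodies and 21.7% in downstream flanks. Many of these genes are listed at 0 for an untranslated region or for introns, so the same was asked of the 620 members with a 5' UTR, introns and a 3' UTR above 0 in at least 1 context. In these, CG stood at 1.50% in 5' UTRs, 11.8% in exons, 32.6% in introns and 33.6% in 3' UTRs under normal water. The 3' UTR average was above that of the 5' UTR in 499 of the 620 genes and below it in 57. This order of the means was not particular to the members. Among all genes with the region above 0 in some context, normal water CG averaged 36.5% in 3' UTRs and 10.8% in 5' UTRs. With exon CG of 20% or more the values were 46.3 and 11.3%, and with exon CG under 5% 10.3 and 3.72%.

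Introns and 3' UTRs were divided among the members. The intron CG average was above the exon CG average in 1012 of the 1561 members with any intron CG, or 64.8%. It reached 50% or more in 375 of the 1769 members with introns above 0 in some context, while 500 of them stayed under 5%. In 3' UTRs, CG was above the exon level in 858 of the 1146 members with any 3' UTR CG, or 74.9%. Both shares depend on the exon level that chose the genes, so they are a description. For introns the share was 62.0% over all genes, 84.0% in genes with exon CG under 5% and 57.9% in those with 20% or more. For 3' UTRs the share was 49.1% over all genes, 91.8% in genes with exon CG under 5% and 35.8% in those with 20% or more. Of the 1390 members with a 3' UTR above 0 in some context, 464 averaged 50% or more in 3' UTR CG and 416 under 5%. The 5' UTR was nearly free of CG methylation, with an average under 5% in 873 of 963 members, or 90.7%, and 5 members at 50% or more. The share under 5% was 89.5% in genes with exon CG under 5%, 66.5% in those with 20% or more and 71.5% over all genes.

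**Figure D1:**
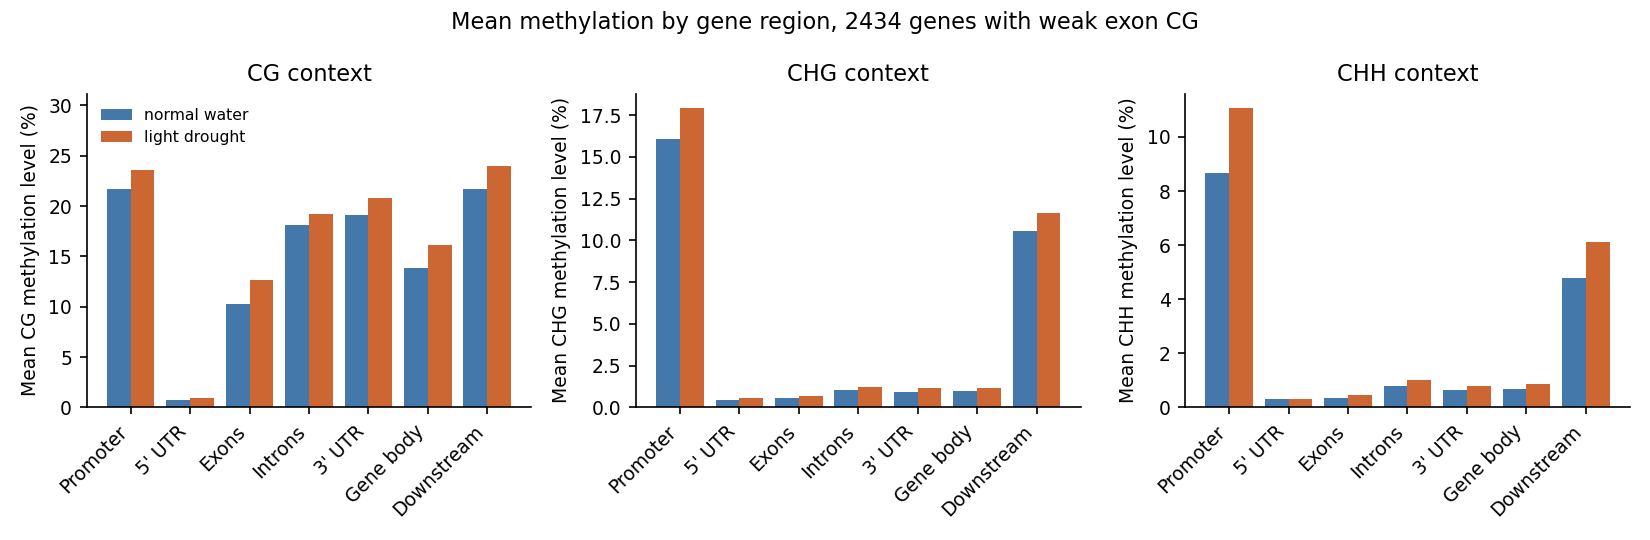
Mean methylation level, in percent, of the 2434 genes by gene region in the CG, CHG and CHH contexts (bars, 1 library per condition, so no error bar; scales differ between panels). CG is lowest in 5' UTRs and higher in introns and 3' UTRs than in exons, while CHG and CHH are concentrated in promoters and downstream flanks.

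Non-CG methylation was low inside these genes, which for exon and intron CHG follows from the rule. Exon CHG averaged 0.552% under normal water and 0.692% under light drought. Exon CHH, which the rule did not use, averaged 0.358% and 0.471%, and it was under 1% in 2277 of the 2434 members and 5% or more in 13. Exon CHH was also low in the other genes within the CHG limits. It averaged 0.219 and 0.278% with exon CG under 5%, and 0.451 and 0.545% with 20% or more. The averages over all genes were 2.67 and 3.02%. Gene-body CHG averaged 5% or more in 87 members.

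Exon CG methylation was higher in the light drought library. The mean over members was 12.6%, against 10.3% under normal water, which gives a difference of 2.34 points (SD 6.95 over 2434 genes), or 22.7% more than under normal water. Medians were 12.1% and 9.94%, with quartiles of 8.50 and 16.5% under light drought and of 5.85 and 14.3% under normal water. The level was higher under light drought in 1590 members, or 65.3%, and lower in 840, or 34.5%. Over all genes, exon CG was higher in 46.7% and lower in 36.0%. For all genes above 0 in both libraries the shares were 55.7 and 43.6%, against 65.4 and 34.5% of such members. Among the members that were higher, the median difference was 4.11 points, and among those that were lower it was -2.485 points. Distributions of the libraries overlapped widely, with a range of 0 to 33.3% under normal water and of 0 to 38.6% under light drought.

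The libraries also placed different numbers of members outside the limits. Under normal water 461 members had an exon CG level below 5% and 107 had 20% or more. Under light drought 133 were below 5% and 222 were at 20% or more. Exons were listed at 0 in CG in 78 members under normal water and in 43 under light drought. Counts of members at 0 in exons also differed in the other contexts, at 967 against 831 in CHG and 338 against 281 in CHH, and the part of missing or thin coverage in the differences was not tested. Without members listed at 0 in either library the exon CG difference was 2.19 points (SD 5.72 over 2313 genes), with 65.4% higher. When every limit had to be met in each library by itself, 1540 genes remained and the difference was 1.03 points, with 60.1% higher. That choice leaves out each gene with a level outside a limit in either library.

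**Figure D2:**
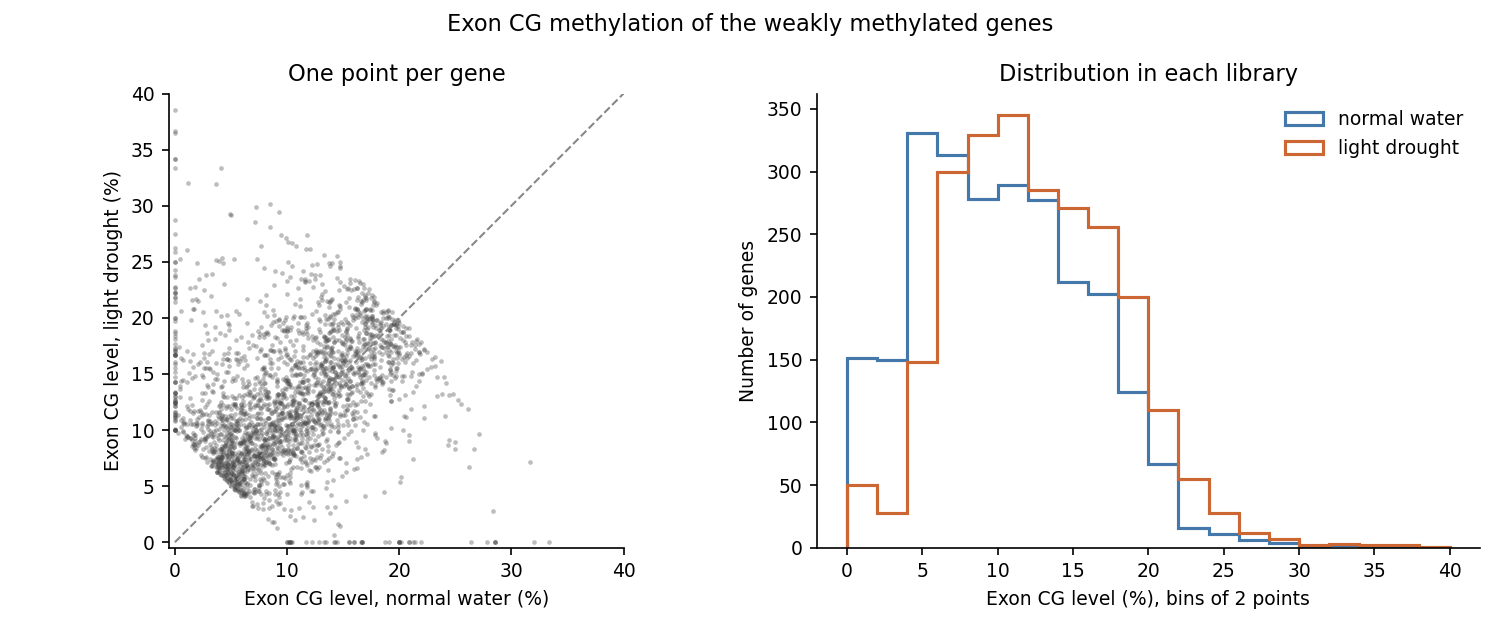
Exon CG level of each of the 2434 genes under light drought against normal water (left, in percent, dashed line at equality) and the distribution of the same levels in each library (right, number of genes in bins of 2 points). The diagonal edges come from the limits on the average. More points lie above the line (1590 genes) than below it (840), and the light drought distribution is shifted upwards, with medians of 12.1% and 9.94%.

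The largest exon CG differences among the members were from or to a listed level of 0. The identifiers of the files are not paired with gene names in the sources used here, so the genes are given by identifier and their functions are not known. orange1.1t04898, on the unplaced sequence, was listed at 0% under normal water and stood at 38.6% under light drought in exon CG, and its promoter and downstream flank were at 0% in CG in both libraries. Cs5g13280, on chromosome 5, was listed at 0% and stood at 36.7% in exon CG, and its 3' UTR was at 25.3% and 65.7%. For this gene the authors' deposited table has an exonic CG region of 12 cytosines on chromosome 5 at 10357977 to 10358016, with a difference of 44.6 points towards light drought and a corrected p of 0.231. Of these 4 genes, Cs5g13280 alone had a CG region in the authors' tables.

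Cs3g10060, on chromosome 3, stood at 33.3% in exon CG under normal water and was listed at 0% under light drought, and its introns were at 24.6% and 0%. orange1.1t05352, on the unplaced sequence, stood at 32.0% in exon CG and was listed at 0%, while its promoter was methylated in CG at 88.2% and 81.8%. Among members above 0 in both libraries, the extremes were a gene on the unplaced sequence at 1.18% under normal water and 32.0% under light drought, and a gene on chromosome 8 at 28.4% and 2.78%.

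The exon CG difference was compared over the whole range of exon CG levels, within the same CHG limits. It was 2.35 points for members averaging 5 to 8% (688 genes, SD 5.20), 2.54 points at 8 to 12% (700 genes, SD 7.31), 2.38 points at 12 to 16% (557 genes, SD 7.28) and 1.98 points at 16 to 20% (489 genes, SD 8.12). All genes in both tables together differed by 0.65 points (SD 9.63). Genes averaging above 0 and under 5% differed by 0.539 points (5037 genes), those at 20 to 30% by 1.42 points (1216 genes), those at 50 to 60% by -0.151 points (1259 genes) and those at 90 to 100% by 0.0497 points (1900 genes). An average under 5% limits a difference to less than 10 points, so the lowest group is bounded by its definition. The share of genes with the higher level under light drought was 71.9% among members averaging 5 to 8% and 58.9% at 16 to 20%, next to 62.6% for genes above 0 and under 5% and 49.8% at 90 to 100%. With 1 library per condition, the contrast between these groups of genes has no test over samples.

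**Figure D3:**
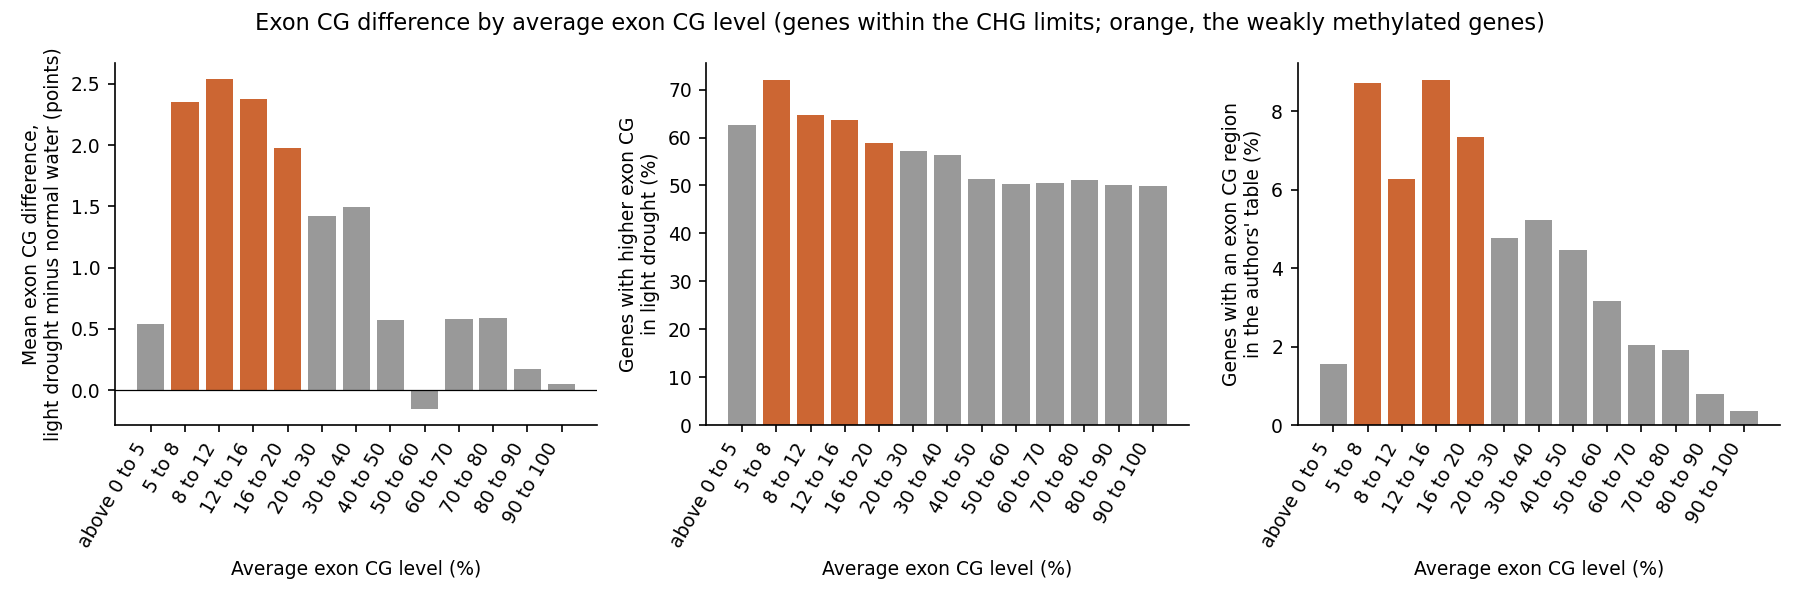
Mean exon CG difference in percentage points, positive where light drought is higher (left), share of genes with the higher exon CG level under light drought (middle) and share of genes with an exonic CG region in the authors' table (right), by the average exon CG level, within the CHG limits. Orange bars are the weakly methylated genes, whose mean differences lie between 1.98 and 2.54 points, and grey bars are other genes, between -0.151 and 1.49 points (bars without error, 1 library per condition).

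The exon difference was smaller in members whose introns were rich in CG methylation. With an intron CG average under 5%, exons stood at 11.8% with light drought against 8.48%, 3.33 points apart (SD 6.70 over 500 genes), and 73.6% of the genes were higher. The difference was 2.92 points (SD 6.61 over 493 genes) for introns at 5 to 20% and 1.42 points (SD 5.29 over 401 genes) at 20 to 50%. With introns at 50% or more it was 0.133 points (SD 4.74 over 375 genes), from 13.4% to 13.5%, and 49.9% of the genes were higher. The 665 members with introns listed at 0 in every context, among which genes without introns fall, differed by 2.95 points (SD 8.77).

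Exon CG averages differ between these intron groups, so the split was repeated within each step of exon CG. The lower intron group then held introns under 20% together with introns listed at 0 in every context. At 5 to 8% the difference was 2.71 points for this lower group (561 genes) and 0.772 points for introns at 20% or more (127 genes). At 8 to 12% it was 3.07 against 1.11 points, at 12 to 16% 3.16 against 1.18 points, and at 16 to 20% 3.66 against 0.212 points. Outside the members, the lowest of these values was also that with introns at 50% or more, but the other intron groups stood in another order. Among genes with exon CG of 20% or more, the exon difference was 1.90 points with introns under 5% (361 genes, SD 12.2), 2.56 points at 5 to 20%, 0.661 points at 20 to 50% and 0.193 points at 50% or more (7241 genes, SD 6.01). Among genes with exon CG under 5%, the values were 0.40, 0.87, 0.473 and 0.044 points in the same sequence of intron groups.

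**Figure D4:**
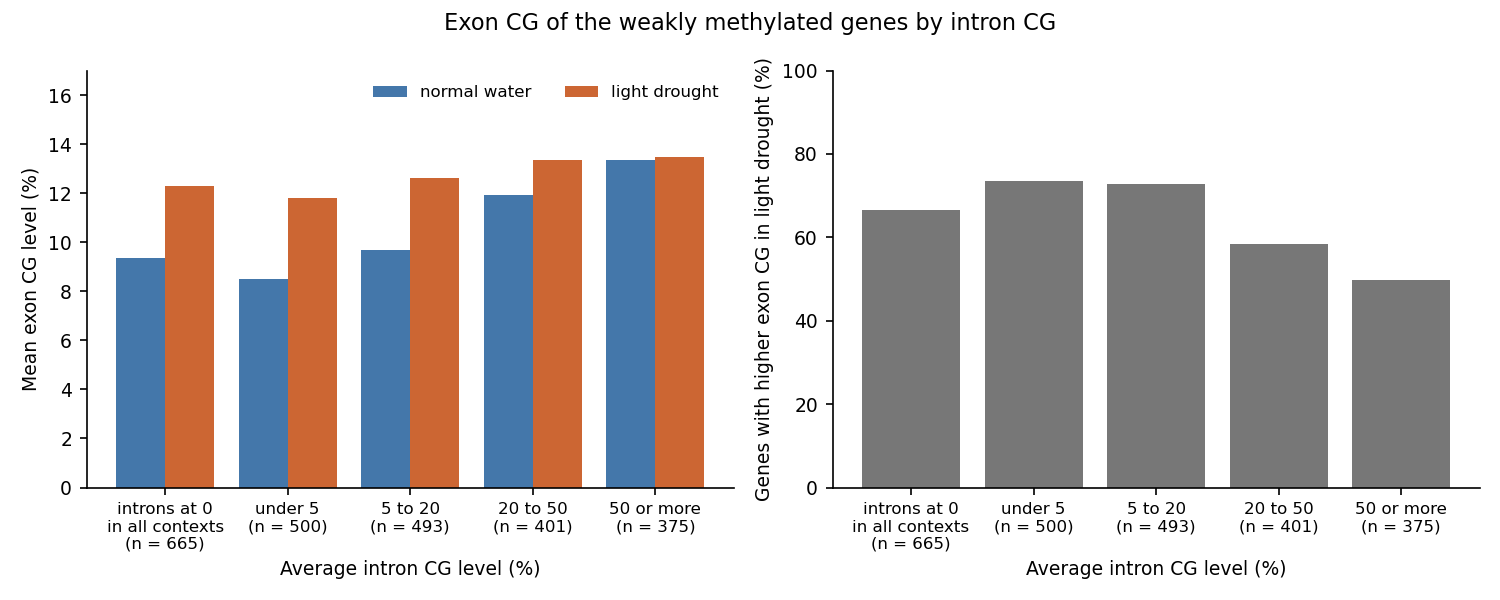
Mean exon CG level in each library, in percent (left), and share of genes with the higher exon CG level under light drought (right), for the weakly methylated genes grouped by average intron CG level, with the number of genes under each group (bars without error, 1 library per condition). The libraries differ by 3.33 points with introns under 5% and by 0.133 points with introns at 50% or more.

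CG levels of the other gene regions were also higher on average in the light drought library. Gene bodies stood at 16.2% against 13.8%, a difference of 2.35 points (SD 5.99), with 67.8% of members higher and 32.0% lower. They include the exons whose levels chose the members, so the gene-body values are not separate from the exon values. Introns differed by 1.14 points (SD 8.31), at 19.2% against 18.1%, with 37.1% higher, 26.8% lower and 873 members at 0 in both libraries. Over all genes above 0 in both libraries, gene bodies were higher in 59.0% and lower in 40.5%, against 68.0 and 31.8% of such members. Introns were higher in 51.8% and lower in 46.5% of such genes, against 57.0 and 42.7% of such members. The difference of 3' UTRs was 1.65 points (SD 10.03), at 20.8% against 19.1%, and it was 3.57 points (SD 12.6), at 51.5% against 47.9%, in the 953 members above 0 in both libraries, of which 62.3% were higher and 36.3% lower. Genes with exon CG of 20% or more differed by 4.49 points in 3' UTRs above 0 in both, and genes under 5% by 2.09 points. Over all genes, 61.7% of such 3' UTRs were higher and 36.9% lower. In 5' UTRs the mean was 0.898% against 0.767%, with 7.64% of members higher, 6.94% lower and 2076 at 0 in both. Of all genes, 11.4% were higher and 9.81% lower in 5' UTR CG.

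Both flanks were similar in CG. Promoters stood at 23.6% with light drought against 21.7% with normal water, a difference of 1.90 points (SD 8.22), with 54.6% of members higher and 32.3% lower. Downstream flanks stood at 24.0% and 21.7%, a difference of 2.25 points (SD 11.4), with 43.8% higher and 23.0% lower. The median difference was 0.53 points in promoters and 0 in downstream flanks, where 801 members were at 0 in both libraries. Among members above 0 in both libraries, 63.7% of 1841 promoters and 65.1% of 1431 downstream flanks were higher under light drought. Shares over all genes listed in both libraries were close to those of all members. Promoter CG was higher in 52.3% of all genes and lower in 34.4%, and downstream CG higher in 41.5% and lower in 25.5%.

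CHG methylation was concentrated in the flanks. Promoters averaged 17.9% with light drought against 16.1% with normal water, a difference of 1.80 points (SD 7.27), with 54.1% of members higher and 29.3% lower. Downstream flanks averaged 11.6% and 10.6%, a difference of 1.04 points (SD 6.46), with 36.7% higher and 22.3% lower. Exon CHG differed by 0.139 points, with 47.9% higher and 31.2% lower, and intron CHG by 0.20 points, with 28.1% and 21.2%. Gene-body CHG differed by 0.224 points, with 55.8% higher and 35.2% lower. In 5' and 3' UTRs the CHG differences were 0.121 and 0.206 points, with 8.22 and 17.3% of members higher and 7.23 and 12.7% lower. Levels within these genes were around 1% in either library, so the differences are small in points. Over all genes, promoter CHG was higher in 52.2% and lower in 32.4%, and downstream CHG higher in 37.5% and lower in 25.1%. Exon CHG was higher in 42.8% and lower in 34.0% of all genes, intron CHG in 27.8 and 22.6%, and gene-body CHG in 49.1 and 36.2%. For 5' and 3' UTRs, 10.5 and 16.6% of all genes were higher in CHG and 8.68 and 12.8% lower.

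CHH methylation had the most uniform direction in promoters. Promoters averaged 11.1% with light drought and 8.67% with normal water, a difference of 2.38 points (SD 4.51), or 27.5% more than under normal water. Medians were 5.53% and 3.75%, and the level was higher in 71.6% of members and lower in 22.6%. Downstream flanks stood at 6.11% and 4.80%, a difference of 1.31 points (SD 4.71), with 51.1% higher and 19.4% lower. These values were near those over all genes listed in both libraries. There the promoter CHH difference was 2.40 points, with 69.6% higher and 23.1% lower, and the downstream difference 1.52 points, with 51.9% higher and 19.4% lower. In the members, exon CHH differed by 0.113 points, with 58.8% higher and 34.8% lower, and gene-body CHH by 0.202 points, with 65.2% higher and 31.02% lower. The differences were 0.205 points in introns, 0.143 points in 3' UTRs and 0.0236 points in 5' UTRs, with 41.2, 29.2 and 18.2% of members higher and 25.8, 20.0 and 15.1% lower. Exon CHH was higher in 55.9% and lower in 31.6% of all genes, and gene-body CHH in 61.7 and 29.3%. For introns, 3' UTRs and 5' UTRs, 38.1, 27.4 and 19.7% of all genes were higher and 22.9, 19.0 and 15.7% lower.

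Promoter states of the members ranged from clean to densely methylated. The promoter CG average was under 5% in 857 members, or 35.2%, between 5 and 50% in 1170, or 48.1%, and 50% or more in 407, or 16.7%. The same shares were 36.1, 44.0 and 19.9% in genes with exon CG under 5%, and 32.1, 49.1 and 18.8% in those with 20% or more. In the group of 407, promoter CHG stood at 56.1% under light drought and 52.6% under normal water, and promoter CHH at 25.8% and 20.9%, a difference of 4.90 points (SD 5.39) with 88.5% of the genes higher. In the group of 857, promoter CHH stood at 2.19% and 1.53%, a difference of 0.664 points (SD 3.71) with 53.9% higher and 30.5% lower. Over all genes with promoter CG of 50% or more, promoter CHH differed by 3.34 points (SD 5.67), with 79.4% higher and 20.0% lower. Within the CHG limits, such promoters differed by 4.28 points (SD 5.74) with exon CG of 20% or more, with 80.3% higher and 18.4% lower. With exon CG under 5% they differed by 3.42 points (SD 7.01), with 77.5% higher and 22.2% lower. Over all genes with promoter CG under 5%, promoter CHH differed by 0.653 points (SD 4.47), with 48.9% higher and 28.6% lower. The exon CG difference of the members was of similar size in each promoter state. It was 2.18 points with clean promoters, 2.49 points between and 2.22 points with promoters at 50% or more, at normal water levels of 10.5, 10.1 and 10.3%. Across the 2434 members, differences in exon CG and in promoter CHH had a Pearson's r of -0.0779 and a Spearman's rho of -0.0425, values that share the 2 libraries and their depth.

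Members were counted as differing when the level differed by at least 10 points in CG or CHG, or 5 points in CHH. In exon CG, 272 members (11.2%) were higher under light drought, where 5.37% of all genes were, and 81 (3.33%) were lower, where 3.04% of all genes were. The rule averaged these same exon levels. A member could fall within the limits through the library where it was high, so these exon CG counts are a description. In gene-body CG, 186 members (7.64%) were higher, against 4.36% of all genes, and 45 lower (1.85%), against 2.08%. Gene bodies include the exons that the rule averaged, so the gene-body counts are a description too. In intron CG, 207 members were higher (8.50%), against 4.98% of all genes, and 117 lower (4.81%), against 3.82%. In genes with exon CG under 5%, gene bodies were higher in 0.965% and lower in 0.508%, and introns in 2.15 and 1.18%. With exon CG of 20% or more, gene bodies were higher in 4.23% and lower in 1.44%, and introns in 5.28 and 4.68%. The members' shares were nearer the background in flanks and 3' UTRs. Promoter CG was higher in 246 members (10.1%, background 9.82%) and lower in 89 (3.66%, background 4.76%). CG in 3' UTRs was higher in 265 (10.9%, background 10.2%) and lower in 109 (4.48%, background 4.11%), and CG in downstream flanks higher in 286 (11.8%, background 10.3%) and lower in 91 (3.74%, background 4.21%).

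In promoter CHG, 178 members (7.31%, background 8.13%) were higher and 61 (2.51%, background 3.49%) lower. Promoter CHH was higher by 5 points or more in 478 members (19.6%, background 20.3%) and lower in 30 (1.23%, background 2.13%). For downstream CHH the counts were 247 higher (10.1%, background 12.7%) and 28 lower (1.15%, background 1.79%). A gene with an exon CG average under 5% cannot differ by 10 points, so the background in exon CG includes 9638 genes that could not be counted. Among the 10873 genes with exon CG of 20% or more, which could, 6.23% were higher and 3.57% lower by 10 points.

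In the remaining regions and contexts few members differed by this size. CG in 5' UTRs was higher in 29 members (1.19%, background 1.40%) and lower in 19 (0.781%, background 1.07%). Downstream CHG was higher in 123 (5.05%, background 5.49%) and lower in 39 (1.60%, background 2.61%). The limits of the rule leave 0 members at this size in exon CHG, where 1.82% of all genes were higher and 1.62% lower. They also restrict intron CHG, with 19 members higher (background 1.91%) and 5 lower (background 1.34%). Gene-body CHG was higher in 3 members (background 1.73%) and lower in 0 (background 1.41%). In CHG, 3' UTRs were higher in 22 members (background 1.08%) and lower in 9 (background 0.702%), and 5' UTRs higher in 13 (background 0.616%) and lower in 5 (background 0.533%).

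Counts for CHH inside the genes, at 5 points, were also low. The background in CHG and CHH includes the 6128 genes outside the CHG limits. Exon CHH was higher in 7 (background 2.80%) and lower in 1 (background 1.00%), and gene-body CHH higher in 11 (background 2.75%) and lower in 1 (background 0.894%). Intron CHH was higher in 30 members (background 3.00%) and lower in 10 (background 1.04%). Counts in 3' UTRs were 25 higher (background 1.45%) and 6 lower (background 0.578%), and in 5' UTRs 10 higher (background 0.770%) and 9 lower (background 0.402%).

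Differentially methylated CG regions of the authors were listed for the exons of a larger share of members than of all genes. The rule averaged exon CG over the same 2 libraries that the regions compare. A gene low in 1 library could become a member through the other, so the shares of members with a region are a description. The authors' deposited table lists short regions with at least 10 cytosines, each with a signed difference and p-values that compare cytosines of the libraries, not trees. A CG region of any feature was listed for 270 members in the authors' deposited table, or 11.1%, against a background of 5.80% of all genes. An exonic CG region was listed for 189 members, or 7.76%, against a background of 2.74% of all genes. All genes include 4882 with exon CG at 0 in both libraries. The share was 0.82% in genes with exon CG under 5% and 2.61% in those with 20% or more. Within the CHG limits, 0 of the 4601 genes with exon CG at 0 in both libraries had such a region. The share was 1.57% in the 5037 genes above 0 and under 5%. It lay between 6.29 and 8.80% in the 4 steps of exon CG that make up the members, and was 4.77% at 20 to 30%, 5.23% at 30 to 40%, 4.47% at 40 to 50% and 0.368% at 90 to 100%. In the authors' deposited table these members held 211 exonic CG regions, of which 159 were higher under light drought and 52 lower, with median differences of 24.0 and -21.965 points. The share of higher regions was 75.4%, near the 71.7% of exonic CG regions over all genes. None of the 211 had a corrected p under 0.05 in the authors' deposited table, and all rest on the uncorrected p-values.

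The regions and the gene levels went the same way in most members. In 180 of the 189 members the exonic CG regions had 1 direction, and in 165 of these the exon CG level differed in that direction. The 137 members with higher regions stood at 15.5% in exon CG with light drought against 6.84% with normal water, and the 43 with lower regions had 10.1% and 13.2%. These genes were picked by a difference between the same libraries, so the values describe them and support nothing further. In the 2245 members without an exonic CG region, exons stood at 12.5% against 10.4%, a difference of 2.06 points (SD 6.78), with 64.4% higher. The share of members with an exonic CG region was 9.60% with intron CG under 5% and 2.67% with intron CG of 50% or more. The same shares were 2.79 and 1.94% over all genes. They were 6.09 and 1.62% in genes with exon CG of 20% or more, and 1.19 and 0% in those under 5%.

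The largest of these regions in the authors' deposited table lay on the unplaced sequence at 39647598 to 39647614, with 12 cytosines and a level higher by 58.0 points under light drought (uncorrected p 7.4e-07, corrected p 1). The exons of its gene stood at 29.4% CG with light drought and 9.24% with normal water. A region over exon and intron on chromosome 2, from 1093873 to 1093926, had 56.0 points in the authors' deposited table (uncorrected p 1.08e-05, corrected p 0.493), in a gene at 19.3% and 4.80%. In the other direction, the authors' deposited table has a region over exons on chromosome 7 at 9166757 to 9166910 with -45.7 points (uncorrected p 0.000939, corrected p 1), in a gene at 11.3% and 24.1%. A region over exon and intron on chromosome 3 at 16501147 to 16501217 had -38.7 points in the authors' deposited table, although its gene stood higher in exon CG under light drought, at 22.7% against 15.4%. Starts are counted from 1, and the genome build was not given in the sources used here.

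Other CG regions were listed for fewer members. According to the authors' deposited tables, introns held a CG region in 29 members (1.19%, background 0.513%), promoters in 29 (1.19%, background 1.24%), downstream flanks in 42 (1.73%, background 1.33%), 3' UTRs in 24 (0.986%, background 0.764%) and 5' UTRs in 4 (0.164%, background 0.193%). Light drought was the higher condition in 22 of 25 CG regions that touch 3' UTRs and in 38 of 43 that touch downstream flanks, in the authors' deposited table. Over all genes, light drought was the higher condition in 86.0 and 74.8% of such regions.

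Shares of genes with a CHG or CHH region depend on the genes compared, since all genes include the 6128 outside the CHG limits. A CHG region of any feature was listed for 105 members (4.31%, background 5.54%), with 78 of 124 regions, or 62.9%, higher under light drought in the authors' deposited table, next to 62.2% over all genes. Within the CHG limits, 2.68% of genes with exon CG under 5% and 3.62% of those with 20% or more had a CHG region. CHG regions in promoters were listed for 40 members (1.64%, background 1.61%) and in downstream flanks for 36 (1.48%, background 1.24%). CHG regions in exons were listed for 21 members (0.863%, background 2.48%), where the rule itself keeps CHG-rich exons out. A CHH region of any feature was listed for 990 members (40.7%, background 46.2%), and 1685 of these 2065 regions, or 81.6%, were higher, next to 81.0% over all genes. The share of genes with a CHH region was 42.2% for exon CG under 5% and 41.1% for 20% or more. Promoters held 1191 of the CHH regions, in 650 members (26.7%, background 29.1%), with 981 higher, and downstream flanks held 671, in 382 members (15.7%, background 19.3%), with 550 higher. The higher regions made up 82.4 and 82.0%, near the 82.4 and 81.6% over all genes. Exonic CHH regions were listed for 69 members (2.83%, background 5.27%) and intronic ones for 87 (3.57%, background 5.14%). Within the CHG limits, exonic CHH regions were listed for 0.716% of genes with exon CG under 5% and 1.71% of those with 20% or more, and intronic ones for 1.60% and 3.79%. Exonic regions in both CG and CHG were listed for 5 members, and in both CG and CHH for 10.

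**Figure D5:**
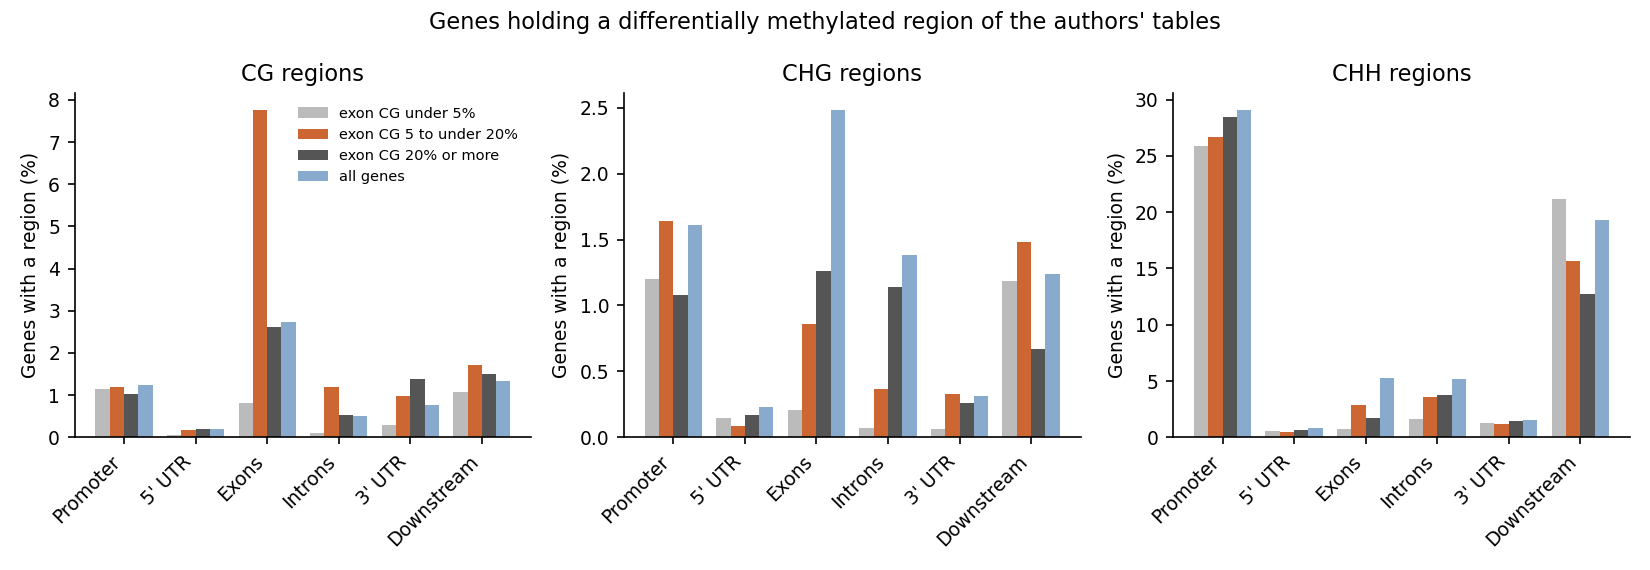
Share of genes, in percent, with at least 1 region of the authors' tables in each gene feature, for CG, CHG and CHH regions, in the weakly methylated genes (orange), in genes with less or more exon CG within the same CHG limits (greys) and in all genes (blue). Exonic CG regions were listed for 7.76% of the weakly methylated genes and for 2.74% of all genes, while CHH regions in promoters were listed for 26.7% and 29.1%.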

How the data were processed

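Shoot DNA was bisulfite sequenced in 1 library per condition. The authors deposited methylation levels in percent per gene region and context, per the file headers, with no read counts, so the depth and precision are unknown. They also deposited tables of regions with a signed difference (a score in percentage points), the number of cytosines, and p-values, uncorrected and corrected, per the file headers. Bismark 0.20.1, SAMtools 1.4 and bedtools 2.26.0 were used by the authors, per the submitters' processing notes, which give no role. Build, annotation, coverage minimum, conversion rate and region caller were not given in the sources used here, and 6 columns of levels per group in the region tables name neither library and were left out. The direction of the regions follows the order in the table names.

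Genes in both tables were joined by identifier. Means, medians, SDs, shares and counts were computed with Python 3.11.15, numpy 2.4.6 and pandas 2.3.3, figures with matplotlib 3.10.9, and the membership and size rules were tested on simulated data. A region touching several features was counted in each. Region starts were read as counted from 0, since the deposited overlap equalled end minus start in 98.9% of CG regions touching 1 feature. Chromosomes were taken from the authors' pairing of gene identifiers with regions. None of the 29073 identifiers matched the reference gene table (0 matches), so gene lists by name were not used, and of the genes picked by largest difference, nearness to a limit or a CG region over an exon, only the 2 with the largest higher and the 2 with the largest lower exon CG difference are named. Members, lists and measures were chosen with earlier results of these data known. Alternatives were levels above 0, medians, other limits, subtraction of the median difference and a larger size.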

Additional observations from a re-analysis of the deposited data

How the results depend on the processing

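No paired analysis was possible because both conditions have 1 library, so leaving out a library was not possible either. With neither replicates nor depth, a change of over 1.5 times was taken as a move. Among 399 values computed again, 286 stayed within it, 111 went past it and 2 took the other sign, both near 0: exon CHG became -0.0192 points with the limits applied to the light drought library, and 5' UTR CHH -0.000578 points with the limits applied in each library. Choosing members by 1 library, an alternative added after seeing the data, gave exon CG differences of 2.08 (normal water) and 1.78 points (light drought). With limits met in each library, exon CG became 1.03 and gene-body CG 1.32 points, since genes crossing a limit are left out. Medians were 0.53 (promoter CG), 0 (intron, 3' UTR and downstream CG), 0.29 (promoter CHG), 0.825 (promoter CHH) and 0.03 points (downstream CHH). Above 0 in both libraries, 3' UTR CG became 3.57 and downstream CHH 2.06 points, intron CG was higher in 57.0% and lower in 42.7%, 3' UTR CG higher in 62.3% and lower in 36.3%, and members lower by the fixed size became 38 (exon CG), 18 (gene-body CG) and 18 (downstream CHH). Subtracting the median of all genes left 1.43 points in promoter CHH. At 20 points, or 10 in CHH, members higher and lower were 73 and 24 (promoter CG), 48 and 19 (exon CG), 65 and 28 (intron CG), 104 and 34 (3' UTR CG), 29 and 12 (gene-body CG), 108 and 37 (downstream CG), 49 and 9 (promoter CHG), 140 and 6 (promoter CHH) and 86 and 9 (downstream CHH). The cause of these changes was not tested beyond what an alternative removes by construction, such as genes listed at 0 or outside a limit.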

Other observations

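The weakly methylated genes were spread over the genome. Between 8.0% (chromosome 7) and 9.69% (chromosome 9) of the listed genes on each numbered chromosome belonged to them, and 6.37% of those on the unplaced sequence. The exon CG difference was positive on each of these sequences, from 1.599 points on chromosome 9, at 11.6% against 9.99%, to 2.81 points on chromosome 8, at 12.7% against 9.89%. Promoter CHH differences ranged from 1.95 points on chromosome 9 to 2.605 points on the unplaced sequence.

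Promoter CHH was higher under light drought in 77.0% of the 1397 members with higher exon CG and promoter CHH above 0 in both libraries, and in 77.2% of the 736 with lower exon CG. Both shares were near the 76.2% over all genes with promoter CHH above 0 in both libraries. Within promoters, differences in the contexts had a Pearson's r of 0.431 and a Spearman's rho of 0.42 between CHG and CHH differences and of 0.33 and 0.369 between CG and CHG differences over 2434 genes, which share the same reads.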
